A study of Mus musculus with 2 samples.

Results

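The genes described here are 10 peptide hormone genes of the gut, Gcg, Gip, Cck, Ghrl, Sct, Nts, Pyy, Sst, Tac1 and Ucn3, a list of names with no threshold on a measured value, out of 31053 genes in the deposited list. All 10 had UMIs (unique molecular identifiers, each marking 1 captured transcript) in the mouse small intestinal organoids that were sequenced. Organoids are epithelial structures grown in culture from intestinal crypts. The labels list a control group and a melatonin-treated group, each with 1 library that pools 3 organoid lines harvested on day 3 of culture. No strain, genotype, sex or melatonin dose is used here.

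The matrix, barcode and gene files of both samples were compared and 3 of 3 were identical, so they hold the same matrix of 21806 barcodes and count as 1 sample. Barcodes end in suffix 1 (set 1) or suffix 2 (set 2), and no label ties a suffix to a treatment. The sets are named here by suffix alone: the library names of both samples, control and melatonin, begin with SET2, a name not used for the sets here. Control and melatonin were therefore not compared, ratios are given as set 2 over set 1 with no meaning for the treatment, and no test was run because each set is a single pool of cells. The intervals given are 95% intervals of counting error and of nothing else. After filtering, 2300 cells of set 1 and 1766 of set 2 were kept, with a median of 29872 and 28759 UMIs per cell. Of the 29 barcode sequences seen with both suffixes, 0 were kept in both sets.

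Gut hormones are made by enteroendocrine cells, scattered cells of the epithelium that arise from progenitors passing through expression of the transcription factor Neurog3. Each hormone is processed from a longer precursor, stored in granules and released on nutrients or other stimuli. Enterochromaffin cells are the enteroendocrine cells that make serotonin through the enzyme Tph1, and in the mouse they also make substance P from Tac1, whereas glucagon-like peptides, cholecystokinin, Gip, secretin, neurotensin, somatostatin and ghrelin are classically assigned to L, I, K, S, N, D and X cells.

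Enteroendocrine cells were chosen with 12 marker genes that include no hormone, among them Chga, Chgb, Neurod1 and Insm1. Cells with a UMI of at least 3 of the markers and a summed level of at least 20 per 10000 UMIs are called endocrine marker-high. There were 312 such cells in set 1 (13.6%, interval 12.2% to 15%) and 304 in set 2 (17.2%, 15.5% to 19.1%). Their median marker level was 493 per 10000 UMIs against 0.485 in the other kept cells, a gap set by the choice itself. Chgb alone gave 348385 of the 429611 marker UMIs in the endocrine marker-high cells. Near the limit lay 63 cells at 10 to 20 and 50 at 20 to 40 per 10000 UMIs. Some cells just above it were rich in a hormone: the highest 2 Gip cells of set 1 (10411 and 8519 Gip UMIs) had marker levels of 36.2 and 26.0, the only Sst-high cell had 35.0, and the highest Ghrl cell of set 2 had 29.0. With the limit at 40, the share of hormone UMIs in endocrine marker-high cells fell from 98.4% to 90.5%. The endocrine marker-high cells were shallower, with a median of 14649.5 UMIs against 32382 in the other kept cells.

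The hormone genes made up 0.399% of the UMIs of the kept cells of set 1 and 0.855% in set 2, and 5.07% and 8.83% of the UMIs of the endocrine marker-high cells. Counts are of transcript 3′ ends and were not divided by gene length. Cck (ENSMUSG00000032532), which encodes cholecystokinin, the hormone that contracts the gallbladder and stimulates pancreatic secretion, was the first of all genes by UMIs in the endocrine marker-high cells. It alone gave 61.2% of all hormone UMIs. Gip, Gcg, Tac1 and Ghrl ranked 8, 11, 15 and 20 in those cells, and Sct ranked 116. The other 4 hormone genes lay between rank 233 and rank 1738.

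Before the values of single members, the sequences upstream of Cck and Gcg and of Tac1 and Ucn3 are shown, because the genes of each pair were often high in the same cell while Gcg and Ucn3 never were. Each is the 250 bases before the RefSeq transcription start in GRCm38.p6, 5′ to 3′ on the gene's strand, with the letters CAGATG in capitals. CAGATG is an E-box, the kind of site that basic helix-loop-helix factors such as Neurog3 and Neurod1 can bind, and it was chosen after the sequences had been seen.
Cck (chr9:121495695-121495944, minus strand): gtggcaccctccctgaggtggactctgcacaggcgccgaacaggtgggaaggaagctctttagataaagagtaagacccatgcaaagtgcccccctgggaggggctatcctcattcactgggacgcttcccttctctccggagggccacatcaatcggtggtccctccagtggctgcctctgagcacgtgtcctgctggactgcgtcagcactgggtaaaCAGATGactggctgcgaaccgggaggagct
Gcg (chr2:62483654-62483903, minus strand): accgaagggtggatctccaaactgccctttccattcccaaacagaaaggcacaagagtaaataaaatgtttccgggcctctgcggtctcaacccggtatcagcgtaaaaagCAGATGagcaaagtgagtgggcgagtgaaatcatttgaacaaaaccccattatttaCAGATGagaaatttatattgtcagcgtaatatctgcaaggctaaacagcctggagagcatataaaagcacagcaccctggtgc
Tac1 (chr6:7554811-7555060, plus strand): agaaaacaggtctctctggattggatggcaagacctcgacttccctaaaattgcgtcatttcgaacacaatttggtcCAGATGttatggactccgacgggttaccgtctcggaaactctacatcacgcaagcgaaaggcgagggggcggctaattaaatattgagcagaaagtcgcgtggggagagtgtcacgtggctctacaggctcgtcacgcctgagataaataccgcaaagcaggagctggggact
Ucn3 (chr13:3945350-3945599, minus strand): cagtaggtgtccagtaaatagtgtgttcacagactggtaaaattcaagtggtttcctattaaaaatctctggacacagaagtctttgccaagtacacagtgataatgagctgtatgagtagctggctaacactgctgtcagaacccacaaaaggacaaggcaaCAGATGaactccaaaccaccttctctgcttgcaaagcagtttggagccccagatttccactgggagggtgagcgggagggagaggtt
Searched on both strands (as CAGATG or CATCTG), the 6 letters were found in this window in 5 of the 10 hormone genes, Cck, Gcg, Sct, Tac1 and Ucn3, and in 14.4% of 32851 promoters of the same length. A gene counts where any of its listed start sites has the letters, by which 16.3% of all 27025 genes do. The 10 hormone genes have 14 start sites, and 5 of the 14 carried them. Gcg carried 2 copies, the first starting 139 bases before the start site, and Cck carried 1 copy starting 30 bases before it. In Tac1 and Ucn3 the copy started 173 and 87 bases before the start site. Another E-box tried, CAGCTG, was found in Ghrl, Gip, Nts and Sct, 4 of 10 genes and 4 of 14 start sites, against 14.7% of all genes and 13.0% of all promoters. The letters TATAAA, searched on the gene's strand, were found in Gcg and Sct, 2 of 10 genes and 2 of 14 start sites, against 8.94% of genes and 7.59% of promoters. A match is a description of letters and not a bound site, and the genome build used by the authors is not given in the sources used here.

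Levels over the kept cells of a set are given as CPM, the UMIs of a gene out of 1000000 UMIs. Cck stood at 2189 CPM in set 1 (interval 2178 to 2201) and 5541 in set 2 (5520.4 to 5561). Gip (ENSMUSG00000014351), the glucose-dependent insulinotropic peptide that raises insulin release, followed with 790.0 (783 to 797) and 1045 (1037 to 1054). Gcg (ENSMUSG00000000394), whose precursor yields the glucagon-like peptides in the gut, stood at 228 (224 to 232) and 813 (806 to 821). All 3 were higher in set 2 by their intervals, Gip by 1.32-fold, as were 9 of the 10 hormones and 20.9% of all genes.
Tac1 (ENSMUSG00000061762), the precursor of substance P, was at 409 (404 to 414) and 425 CPM (419.5 to 431). Ghrl (ENSMUSG00000064177), which encodes the appetite hormone ghrelin, was at 243 (239 to 247) and 422 (417 to 428), and Sct (ENSMUSG00000038580), which encodes secretin, the hormone of pancreatic bicarbonate release, at 78.4 (76.2 to 80.6) and 137 (134 to 140.1). In set 2 the intervals of Tac1 and Ghrl overlapped, so their order there cannot be told.
Of the 4 low hormones, Ucn3 (ENSMUSG00000044988), a peptide of the corticotropin-releasing factor family, was at 27.0 (25.8 to 28.4) and 20.4 CPM (19.2 to 21.7). Nts (ENSMUSG00000019890), the precursor of neurotensin, was at 20 (18.9 to 21.2) and 23.7 (22.4 to 25.1). Pyy (ENSMUSG00000017311), which encodes the satiety peptide YY, was at 6.17 (5.56 to 6.82) and 21.6 (20.4 to 22.9). Sst (ENSMUSG00000004366), which encodes the inhibitory hormone somatostatin, was at 0.422 (0.276 to 0.618) and 96.2 (93.5 to 98.9), the widest gap between the sets among the 10.

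**Figure D1:**
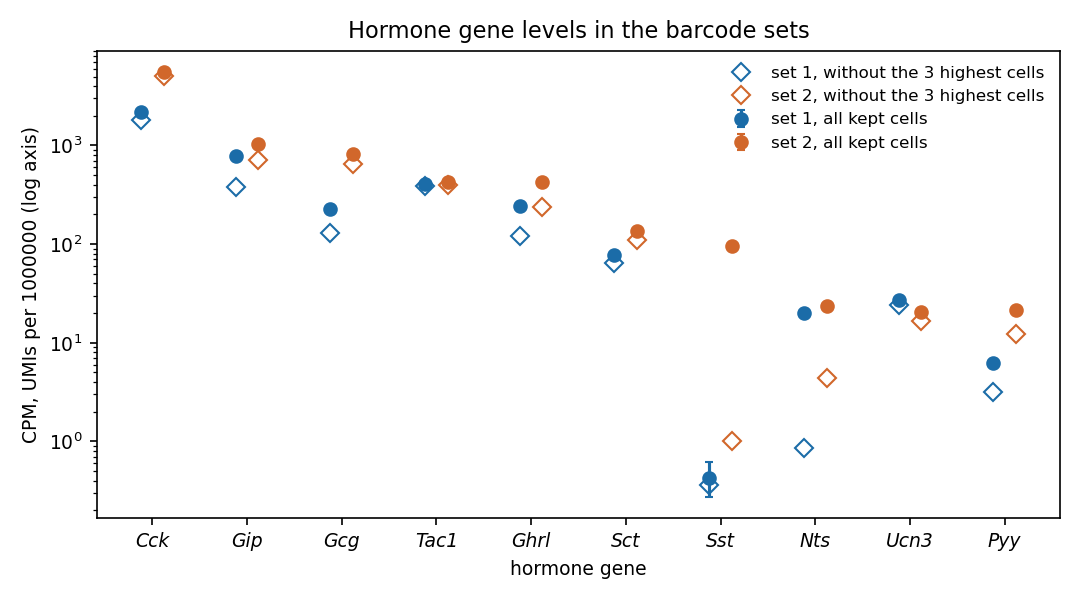
Level of each hormone gene in the kept cells, in CPM (UMIs per 1000000) on a log axis, for set 1 (blue) and set 2 (orange). Filled circles are all kept cells with 95% Poisson intervals and open diamonds leave out the 3 cells with the most UMIs of that gene in each set; without them Sst falls to 0.999 in set 2 and Nts to 0.862 in set 1, while Tac1 stays at 390.2 and 402.

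A hormone was counted as apart where the intervals of the sets did not overlap and the fold on CPM plus 1 was at least 2. By that rule 4 of the 10 hormones, Gcg (log2 ratio 1.83), Cck (1.34), Pyy (1.66) and Sst (6.10), were higher in set 2, where 0.595% of 15474 genes were, and 0 were higher in set 1, where 0.297% of genes were. Ghrl and Sct stood at log2 ratios of 0.79 and 0.80, Gip at 0.40, Nts at 0.23 and Tac1 at 0.06. Ucn3 was the only hormone with more CPM in set 1 (log2 ratio -0.39). By intervals alone, 9 hormones were higher in set 2 and 1 in set 1, against 20.9% and 12.2% of all genes. The median log2 ratio was 0.80 over the hormones and 0.03 over all genes tested.

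For Gcg, Cck and Sct, the gap between the sets was wider in the share of cells that were high than in the level within those cells. A cell is called hormone-high where it held at least 3 UMIs of the hormone and at least 10 per 10000 UMIs. Among endocrine marker-high cells, Gcg-high cells were 1.35% of the kept cells of set 1 and 3.79% of set 2, a 2.81-fold difference, while the summed level of Gcg within them was 225 and 324 per 10000 UMIs, a 1.44-fold difference. Cck-high cells were 3.48% and 6.96% (2-fold), with levels of 980.5 and 1305 per 10000 UMIs within them (1.33-fold). Sct-high cells were 1.74% and 3.74% (2.15-fold), with levels of 52.0 and 49.2.
For Ghrl and Gip the share of high cells and the level within them went opposite ways. Ghrl-high cells were 1.26% and 3.23% of kept cells (2.56-fold), with levels of 268 and 189 per 10000 UMIs within them. Gip-high cells were 0.913% and 1.87% (2.05-fold), with levels of 1509 and 906. The share of endocrine marker-high cells was itself higher in set 2, and its part in these shares was not tested.
Tac1-high cells were 9% and 9.85% of kept cells, a 1.09-fold difference, with levels of 77.6 and 79.7 per 10000 UMIs within them. Ucn3-high cells were 1.78% and 1.19%, fewer in set 2, with levels of 20.7 and 21.4. Within the endocrine marker-high cells alone, the log2 ratio of set 2 over set 1 was 1.54 for Gcg, 1.03 for Cck, 1.53 for Pyy, 0.50 for Ghrl, 0.51 for Sct, 0.10 for Gip, -0.26 for Tac1 and -0.72 for Ucn3. Sst and Nts had 2 and 7 UMIs in these cells of set 1, against 4871 and 808 in set 2. In those cells 0.386% of 12704 genes were at least 2-fold higher in set 2 with intervals apart, and 1.35% in set 1.

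Cck, Gcg, Sct, Ghrl and Pyy were found largely in the same cells. Of 99 Gcg-high cells, 99 were also Cck-high (interval 96.3% to 100%), and of 20 Pyy-high cells, 20 were (83.2% to 100%). Ghrl-high cells were Cck-high in 80 of 87 cells (92.0%, 84.1% to 96.7%) and Sct-high cells in 97 of 106 (91.5%, 84.5% to 96.0%). The reverse shares were lower. Of 219 Cck-high cells, 45.2% were Gcg-high, 44.3% Sct-high, 36.5% Ghrl-high and 9.13% Pyy-high, so a large part of the Cck-high cells lacked each partner at this level.
Gcg seldom led the cell in which it was high. Cck had the most UMIs of the 10 hormones in 152 cells and Gcg in 5, although 98 endocrine marker-high cells were Gcg-high. In the Gcg-high cells the median level of Cck was 1389 per 10000 UMIs and that of Gcg 146. The top Gcg cell of each set, with 3185 and 3801 Gcg UMIs (14.4% and 15.7% of all UMIs of the cell), was also Cck-high and Ghrl-high. Sct never reached such levels, with at most 549 UMIs and 2.88% of a cell. Across the endocrine marker-high cells of each set, Pearson's r of log-scaled levels was 0.75 and 0.75 for Gcg with Cck, 0.61 and 0.69 for Sct with Cck, 0.63 and 0.64 for Ghrl with Cck, and 0.43 and 0.36 for Pyy with Cck (312 and 304 cells that share a library and its depth).

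Gip marked a smaller and more separate group. Of the 68 Gip-high cells, 54 were endocrine marker-high, 21 in set 1 and 33 in set 2. Of these 54, 38 (70.4%) were also Cck-high, 10 of 21 in set 1 and 28 of 33 in set 2, and 13 carried no other hormone at the high level. Only 2 of the 54 were Tac1-high. Gip reached the largest single-cell level among the hormones, 10411 UMIs or 40.6% of a cell of set 1, and its median over endocrine Gip-high cells was 479.7 per 10000 UMIs. Its correlation with Cck was weak, 0.09 in set 1 and 0.21 in set 2.

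Nearly all Sst came from 1 cell. That cell of set 2 held 4850 of the 4917 Sst UMIs of its set, 27.0% of its 17979 UMIs, and it was also Gip-high, with Gip at 194 per 10000 UMIs. The next Sst cell, with 15 UMIs, was the cell with the most Gip in set 2 (6523 UMIs), and set 1 held 26 Sst UMIs spread over 25 cells. Hhex, a transcription factor known for its role in somatostatin cells, had 70 UMIs in 16 endocrine marker-high cells, and the 2 Sst cells held 29 of them (14 and 15). Another 85 Hhex UMIs lay in the other kept cells, at 0.824 CPM against 7.27 in endocrine marker-high cells. The highest count in any other endocrine marker-high cell was 12. The ratio of Sst between the sets is the ratio of 1 cell to none, and the doublet score of that cell was within the highest 5% of its set.

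Tac1 marked the most cells. There were 208 Tac1-high cells in set 1 and 175 in set 2, and 66.3% (60.8% to 71.6%) and 57.2% (51.5% to 62.9%) of the endocrine marker-high cells were among them. Its level per cell was narrow beside that of Cck: among Tac1-high cells the lowest, median and highest levels were 10.2, 70.9 and 287 per 10000 UMIs, and among Cck-high cells 10.1, 839.5 and 3094. No Tac1-high cell gave more than 2.87% of its UMIs to Tac1. Ucn3 was nested within it. Of 62 Ucn3-high cells, 59 were Tac1-high (95.2%, 86.5% to 99.0%), while 15.4% of Tac1-high cells were Ucn3-high.
Ucn3-high cells and the Cck group did not meet at this level. Of the 62, 0 were high for Cck, Gcg, Ghrl, Sct, Gip, Pyy, Nts or Sst, and with 0 of 62 the upper interval bound was 5.78%. Tac1 and Cck did meet: 48 cells were high for both, 12.5% of Tac1-high and 21.9% of Cck-high cells. Among endocrine marker-high cells, those high for Tac1 or Ucn3 and also for Cck, Gcg, Ghrl or Pyy had a median of 16000.5 UMIs. The median was 17905 in cells of the Cck side alone and 14211 in cells of the Tac1 side alone. The correlation of Tac1 with Cck was -0.43 in set 1 and -0.65 in set 2, and with Ucn3 0.30 and 0.31.

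Nts differed from the other hormones in where its UMIs lay. Only 33.3% of its UMIs were in endocrine marker-high cells. In set 1, 1180 of 1235 UMIs were in 1 cell with 42910 UMIs, which had 2 Chgb UMIs and was not endocrine marker-high, and the other cells of that set had at most 1 Nts UMI each. In set 2 the 5 endocrine Nts-high cells were all Cck-high as well, and the highest of them held 471 Nts UMIs. A further 3 Nts-high cells of set 2 lay outside. The 4 outside cells held 39202 to 72691 UMIs each, and their median marker level was 0.371 per 10000 UMIs.

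Among the 616 endocrine marker-high cells, 562 (91.2%, 88.7% to 93.3%) were high for at least 1 hormone, and 254 of these (45.2%, 41.0% to 49.4%) for at least 2. The share with at least 2 was 41.2% in set 1 (35.3% to 47.2%) and 49.1% in set 2 (43.2% to 55.1%), with overlapping intervals. The share with at least 3 was 14.1% (10.2% to 18.7%) and 28.1% (22.9% to 33.7%), with intervals apart. At least 2 hormones were high together in 41 combinations, of which 14 were seen in a single cell, and 6 hormones were also found high alone. Tac1 alone was found in 267 cells, Tac1 with Ucn3 in 59, Cck with Tac1 in 25, Cck alone in 18, and Gcg, Cck, Ghrl and Sct together in 16. The most hormones in a cell were 6, in 2 cells of set 2 that were high for Gcg, Gip, Cck, Ghrl, Sct and Pyy.
Cells with at least 3 hormones were deeper than those with 1 or 2. The median was 13806 UMIs with 1 hormone, 14615 with 2, 19332 with 3, 20869 with 4, 19110 with 5 and 21785 in the 2 cells with 6, with no steady rise past 3. The part of depth in these numbers was not tested. Of the cells with 1 hormone 12 of 308 (3.90%) were within the highest 5% of Scrublet doublet scores, of those with at least 2 hormones 7 of 254 (2.76%), and of the Ghrl-high cells 7 of 87 (8.05%). The part of doublets in the shared hormones was not tested. The share of cells with at least 2 hormones depended on the level that counts as high. It was 65.0% at 3, 29.7% at 30 and 31.7% at 100 per 10000 UMIs. The limit is a point on a range: between 5 and 10 per 10000 UMIs lay 44 cells for Sct, 29 for Cck, 27 for Ucn3 and 8 for Gcg, and between 10 and 20 lay 31, 28, 31 and 10.

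**Figure D2:**
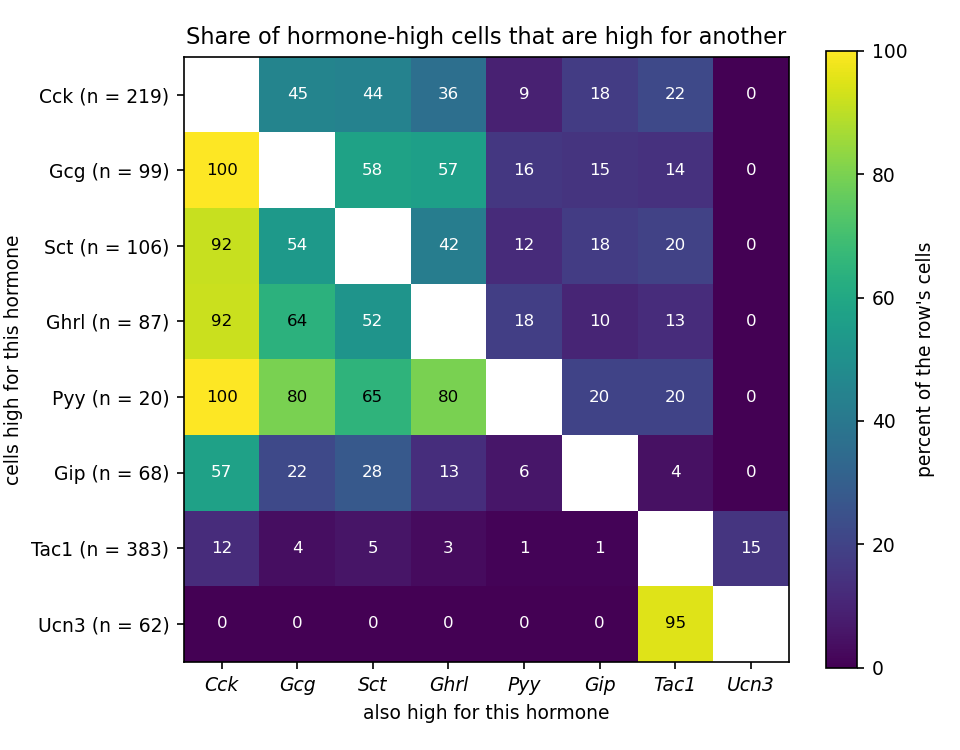
Share of the cells high for the row's hormone that were also high for the column's, in percent of the row's cells, both sets together, with the number of row cells in brackets; Nts (9 cells) and Sst (1 cell) are left out. The Cck column is bright for Gcg, Pyy, Ghrl and Sct, and the Ucn3 row holds 0 everywhere except under Tac1.

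Free RNA in droplets can give UMIs in cells that do not make a hormone, and the other kept cells were taken as the background. The part of free RNA in it was not tested. The other kept cells include the 63 with a marker level of 10 to 20 per 10000 UMIs, and 22 past 20 with a UMI of fewer than 3 markers. The endocrine marker-high cells held 98.4% of all hormone UMIs, 97.6% in set 1 and 98.9% in set 2. Nts went opposite ways in the sets, with 0.0148 per 10000 UMIs in endocrine marker-high and 0.216 in other cells of set 1, where 1 outside cell held most of it, and 1.65 and 0.0876 in set 2. Over both sets the level of each of the other 9 hormones was at least 329.7-fold higher in endocrine marker-high cells, where 2.99% of all genes were at least 10-fold higher. In set 1 alone, 2 of the 26 Sst UMIs were in endocrine marker-high cells. In the other cells of both sets Cck was at 0.429 per 10000 UMIs, Gip at 0.216, Tac1 at 0.0734, Gcg at 0.0718, Ghrl at 0.0612 and Sct at 0.0361, all far under the 10 that counts as high.
The background held the hormones at low shares of their endocrine level. With hormone-high cells left out, the level in other cells was 0.0946% (Cck) to 0.303% (Sct) of the endocrine level for the 8 hormones other than Sst and Nts, with a median of 0.139%. The range was 0.116% to 0.345% in set 1 and wider in set 2, 0.0385% to 0.28%. For Chgb, one of the granule markers that chose the cells, it was 0.125%, a value partly set by the choice. For Nts the same value was 1.03% over both sets and 57.1% in set 1, where the endocrine marker-high cells held 7 Nts UMIs in all. Sst was at 0.134%, set by its 1 high cell.

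**Figure D3:**
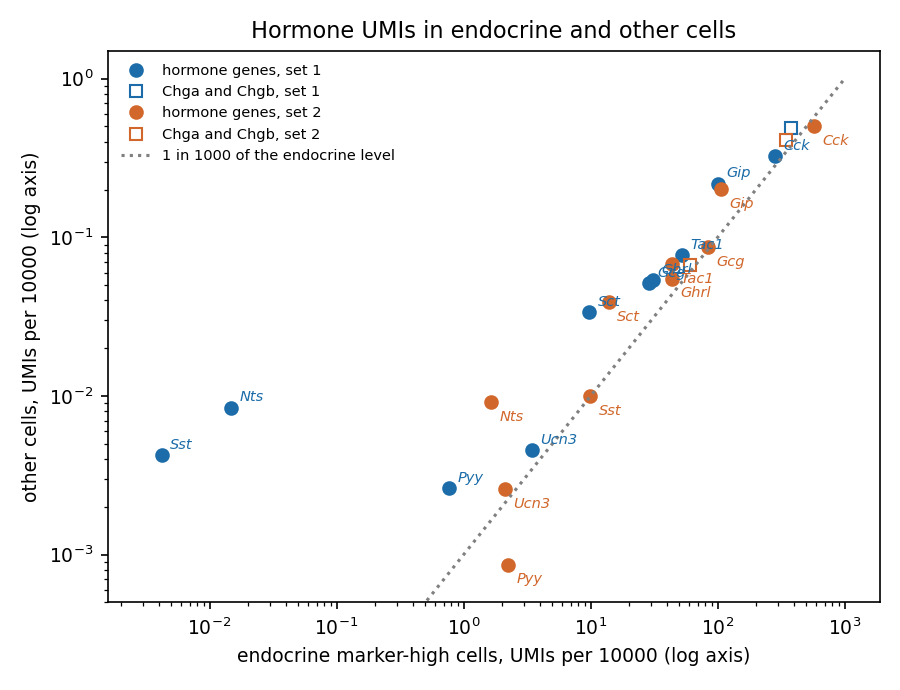
Level in other kept cells (hormone-high cells left out) against the level in endocrine marker-high cells, both in UMIs per 10000 on log axes, for each hormone and set, with Chga and Chgb as squares. Most points lie near the dotted line of 1 in 1000, from Ucn3 to Cck, while Nts of both sets and Sst of set 1 lie above it. Chga and Chgb were among the markers that chose the cells, so the squares were partly set by the choice.

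The share of cells with at least 1 UMI separated endocrine from other cells less than the level did. It was 45.0% in endocrine marker-high and 44.5% in other cells for Gip, and 80.2% and 64.4% for Cck. After each cell of at least 2000 UMIs was thinned to 2000, which left out 342 cells, 7 of them endocrine marker-high, the expected shares were 16% and 5.05% for Gip and 47.6% and 9.26% for Cck. For Tac1 they were 68.2% and 1.62%, and for Gcg 19.4% and 1.58%. Outside the endocrine marker-high cells 34 cells were hormone-high, 24 in set 1 and 10 in set 2, and 23 of them had fewer than 3000 UMIs.

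How few cells carried a hormone differed widely between the members. The number of cells that held 50% of the UMIs of a gene was 55 in set 1 and 49 in set 2 for Tac1, 21 and 10 for Ucn3, 12 and 26 for Cck, and 11 and 15 for Sct. It was 4 and 10 for Gcg, 3 and 4 for Ghrl, 3 and 6 for Gip, and 4 and 4 for Pyy. The highest 3 cells of set 1 held 52.1% of its Gip UMIs, 50.4% of its Ghrl UMIs and 43.2% of its Gcg UMIs, but 4.68% of its Tac1 UMIs.
Set ratios of the concentrated hormones moved when these cells were left out. Without the 3 highest cells of each set, Gip was at 379 and 712 CPM, Gcg at 129.6 and 648, Ghrl at 121 and 236, and Cck at 1808 and 5074. The direction stayed for each of these, and the log2 ratio of Gip rose from 0.40 to 0.91. That of Sst fell from 6.10 to 0.56, and that of Nts rose from 0.23 to 1.53.

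**Figure D4:**
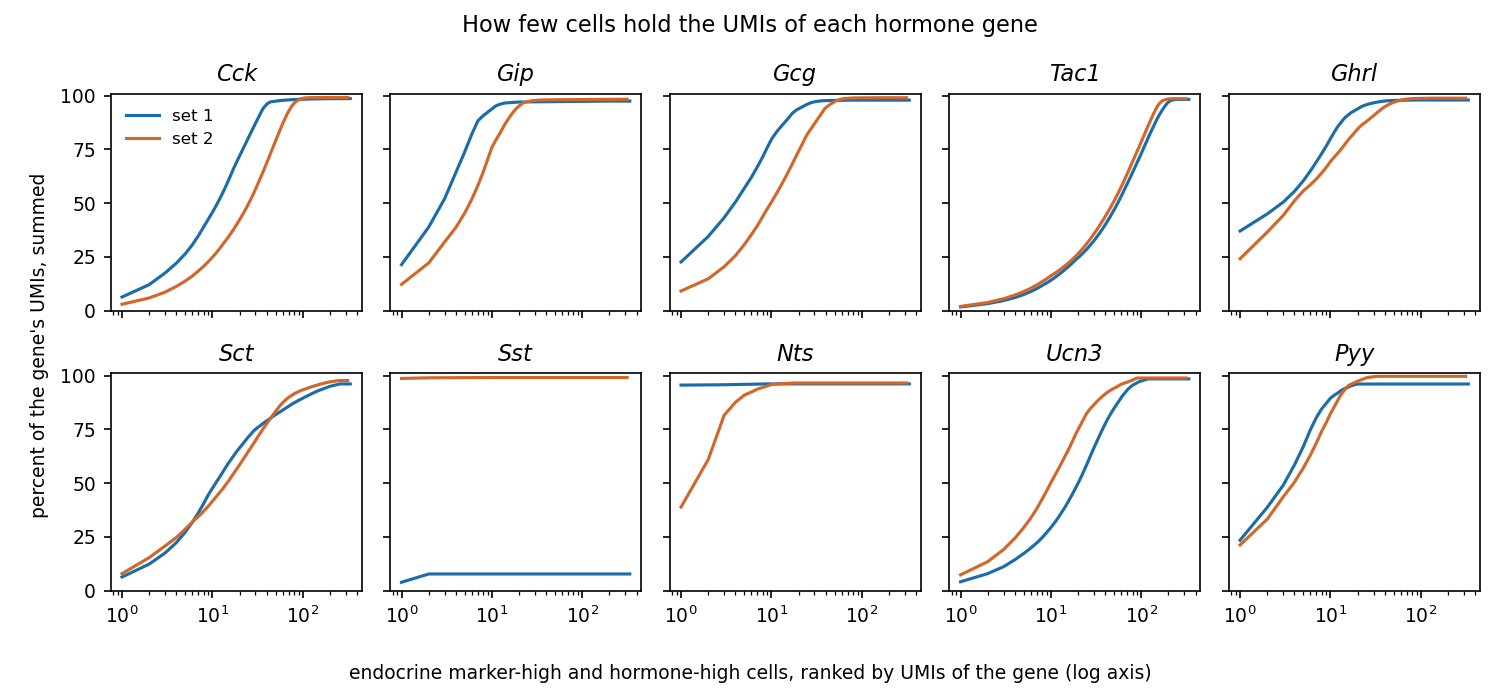
Summed share of the UMIs of each hormone gene, in percent of all its UMIs in the kept cells of a set, over endocrine marker-high or hormone-high cells ranked by their UMIs of that gene (log axis), for set 1 (blue) and set 2 (orange). The curves of Tac1 rise slowly, those of Gip and Ghrl rise within a few cells, Sst of set 2 and Nts of set 1 start above 95%, and Sst of set 1 stays low because its 26 UMIs were mostly in other cells.

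The endocrine marker-high cells were then split by the progenitor factor Neurog3 and by Tph1, each called high at 3 UMIs and 5 per 10000 UMIs or more. There were 132 Neurog3-high cells, 237 Tph1-high cells among the rest, and 247 cells past neither level. The split is by range: 41 cells lay between 2.5 and 5 and 52 between 5 and 10 per 10000 UMIs for Neurog3, and 26 and 59 for Tph1. Of the Neurog3-high cells, 91 also passed the Tph1 level.
Hormones took 0.968% of the UMIs of Neurog3-high cells, 0.892% of Tph1-high cells and 14.6% of the cells past neither level. Tac1 was high in 70.5% of Neurog3-high cells (61.9% to 78.1%) and in 98.7% of Tph1-high cells (96.3% to 99.7%), at nearly the same summed level, 78.3 and 78.5 per 10000 UMIs. In the cells past neither level, 21.9% (16.9% to 27.5%) were Tac1-high. Ucn3 differed between these groups: 0 of 132 Neurog3-high cells were Ucn3-high, which allows up to 2.76%, against 21.5% of Tph1-high cells (16.5% to 27.3%).
The Cck group lay mostly in the cells past neither level. All 98 endocrine Gcg-high cells, all 20 Pyy-high cells and all 5 endocrine Nts-high cells were there, and 94.2% of the Ghrl-high, 93.4% of the Sct-high and 98.1% of the endocrine Gip-high cells. Cck itself reached further, high in 16.7% of Neurog3-high cells (10.7% to 24.1%), 5.06% of Tph1-high cells (2.64% to 8.68%) and 68.4% of the others (62.2% to 74.2%). In Neurog3-high cells Cck was at 7.21 and Ghrl at 7.19 per 10000 UMIs, Sct at 2.46 and Gcg at 0.10. The Ghrl level rested on few cells: 2 of the 132 held 1027 of the 1291 UMIs, 123 had 0 or 1 UMI, and without the 2 the level was 1.49. The highest Cck cell held 339 of 1295 UMIs, and without it Cck was at 5.38. The sets differed within the cells past neither level. There 50% of 114 cells in set 1 (40.5% to 59.5%) and 84.2% of 133 cells in set 2 (76.9% to 90.0%) were Cck-high, and 27.2% (19.3% to 36.3%) and 50.4% (41.6% to 59.2%) were Gcg-high. Tac1 and Ucn3 went the other way in the same cells. Tac1-high cells were 31.6% in set 1 (23.2% to 40.9%) and 13.5% in set 2 (8.22% to 20.5%), and Ucn3-high cells 8.77% (4.29% to 15.5%) and 0.752% (0.0190% to 4.12%).

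**Figure D5:**
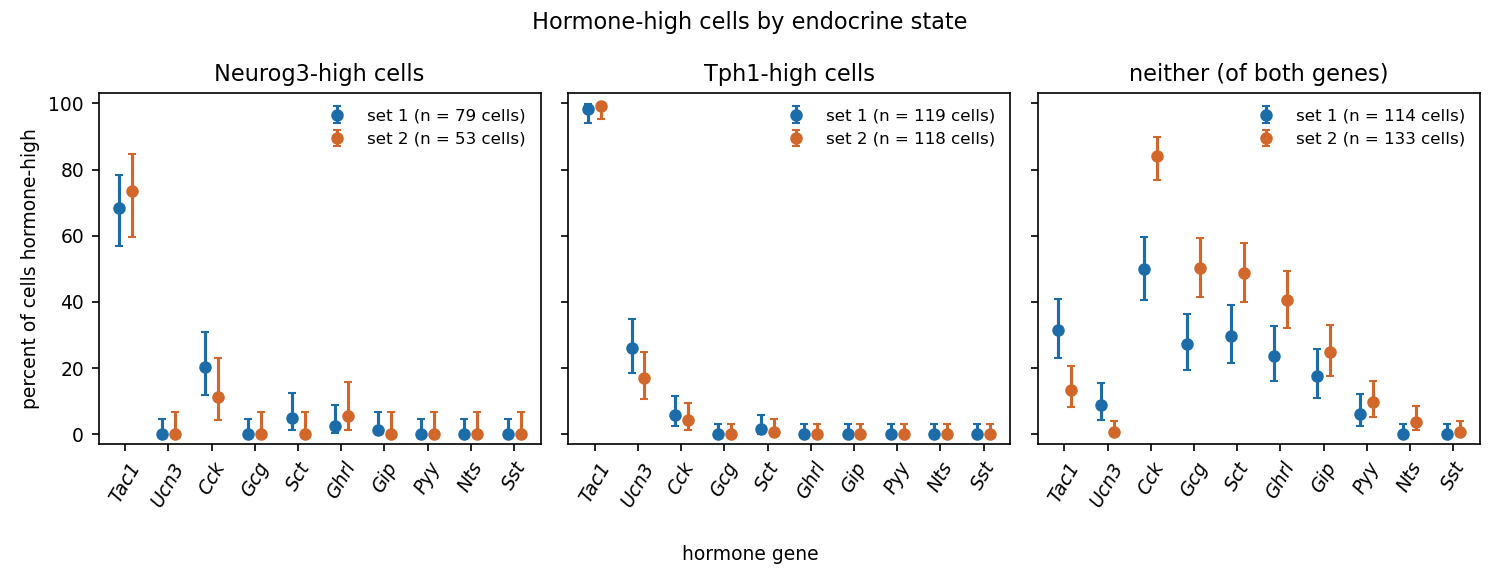
Share of cells that were hormone-high, in percent with 95% Clopper-Pearson intervals, for each hormone in Neurog3-high cells, Tph1-high cells and cells past neither level, by set. Tac1 is high in most cells of the first panels, while Cck, Gcg, Sct, Ghrl and Gip appear mainly in the last panel, with more high cells in set 2.

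For each hormone with at least 10 high cells in each set, the 4 genes whose level followed it most closely over the endocrine marker-high cells were taken from 11062 genes, by the smaller of the Pearson correlations of the sets. They are a description over 312 and 304 cells that share a library, with no test. For Gcg they were Lect2 (0.78 in set 1, 0.79 in set 2), Cck, the granule protein gene Scg2 (0.74, 0.72) and the transcription factor gene Etv1 (0.71, 0.75). For Cck they were Scg2 (0.81, 0.90), Gcg, Etv1 (0.74, 0.80) and Ffar1 (0.68, 0.70), which encodes a receptor for long-chain fatty acids. Scg2, which was among the 12 markers that chose the cells, Cck and Etv1 also led for Ghrl and Sct, joined by Serpina1c for Ghrl (0.63, 0.59) and Fars2 for Sct (0.57, 0.54).
Gip was followed by other genes. They were Cnr1, which encodes a cannabinoid receptor (0.61, 0.70), the fatty acid binding protein gene Fabp5 (0.57, 0.73), Abcc8, which encodes a subunit of the ATP-sensitive potassium channel (0.52, 0.47), and the glucose transporter gene Slc5a1 (0.47, 0.48). Fabp5 was at 58.1 per 10000 UMIs in Gip-high cells and 2.99 in the other endocrine marker-high cells.
Tac1 was followed most closely by Tph1 (0.82, 0.87), then by the sodium channel gene Scn3a (0.78, 0.81), the intermediate filament gene Vim (0.77, 0.82) and Chgb (0.78, 0.76), another of the 12 markers. For Ucn3 the genes were Reg4 (0.69, 0.65), S100a1 (0.74, 0.65), Fxyd6 (0.67, 0.62) and Rpp25 (0.62, 0.64). Reg4, a secreted lectin-like protein gene, was at 387 per 10000 UMIs in Ucn3-high cells and 41.6 in the other endocrine marker-high cells.

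Genes that process, modify or inactivate peptide hormones were mostly endocrine. Of 9 in the list, 7 were at least 10-fold higher on CPM plus 1 in endocrine marker-high than in other cells with intervals apart, where 2.99% of all genes were. Of the 7, Pcsk1, Pcsk1n and Scg5 were among the 12 markers that chose the cells, so that their difference was partly set by the choice. Of the 6 others in the list, 4 were called. Pcsk1, which encodes the convertase that cuts the Gcg precursor to glucagon-like peptides, had 4935 UMIs in 576 endocrine marker-high cells. It had a UMI in 98.0% of Gcg-high cells, against 93.5% of all endocrine marker-high cells. Its level over the hormone groups ran from 4.17 per 10000 UMIs in Gip-high to 6.65 in Ucn3-high cells. It was at 4.99 in Gcg-high and 5.12 in all endocrine marker-high cells. Pcsk2, the convertase that yields glucagon, had 97 UMIs in 22 of these cells and is named here after its value was seen. A single cell held 61 of them, and without it the fold fell from 10.3 to 4.40, short of the rule. Cpe, which trims basic residues from peptide ends, was at 24.5 to 30.6 per 10000 UMIs in cells high for Cck, Gcg, Ghrl, Sct, Pyy or Gip, at 8.99 in Tac1-high cells and at 5.17 in Ucn3-high cells.
Qpct, which forms pyroglutamate ends, had a UMI in 49.0% of Gcg-high cells, 4.46% of Tac1-high cells and 0% of 62 Ucn3-high cells. Mboat4, the enzyme that acylates ghrelin, had a UMI in 25.6% of Ghrl-high, 20% of Pyy-high, 14.3% of Gcg-high and 1.84% of Tac1-high cells, and in 13.0% of endocrine marker-high cells with no hormone high. With 10.4 CPM in endocrine marker-high and 0.233 in other cells it was 44.6-fold higher on CPM itself, and missed the rule, at 9.23-fold, through the 1 CPM added to each. The other gene that missed the rule was Dpp4, which inactivates glucagon-like peptides and Gip, with 141 and 27.5 CPM.

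Among 20 transcription factor genes of the endocrine lineage, 14 were at least 10-fold higher in endocrine marker-high cells, where 2.99% of all genes were. Neurod1, Insm1, Rfx6 and Fev, 4 of the 14, were among the 12 markers that chose the cells, and 10 of the 16 others were called. Some of the 14 had a UMI in most cells of both main groups. Nkx2-2 had one in 88.8% of Gcg-high and 92.9% of Tac1-high cells, at levels of 1.5 and 3.24 per 10000 UMIs, and Neurod1 in 96.9% and 95.3%, at 4.95 and 4.18. Others had a UMI in most cells of some groups and few of others. Lmx1a, known from enterochromaffin cells, had a UMI in 85.0% of Tac1-high and 95.2% of Ucn3-high cells, in 11.8% of Cck-high cells and in 0% of 98 Gcg-high cells. The median depth was 19699 UMIs in Gcg-high and 14258 in Tac1-high cells. Etv1 had a UMI in 96.9% of Gcg-high, 77.8% of Cck-high, 17.3% of Tac1-high and 0% of Ucn3-high cells. Isl1, a known regulator of islet and gut endocrine cells, was in 82.7% of Gcg-high cells, 5.51% of Tac1-high cells and 0% of Ucn3-high cells. Onecut3 was in 53.1% of Gcg-high and 13.0% of Gip-high cells.
Pax4, an early endocrine factor, and Neurog3 were higher in cells with no hormone high than in the high cells of each of the 8 hormones with at least 10 such endocrine cells. The 54 endocrine marker-high cells with no hormone high had Pax4 at 1.28 and Neurog3 at 7.27 per 10000 UMIs, and 68.5% of them had a Neurog3 UMI. In Gcg-high cells Neurog3 was at 0.0320 per 10000 UMIs and in Tac1-high cells at 3.92, with Pax4 at 0.454 in the latter. The Neurog3-high cells, chosen by that gene and mostly Tac1-high, had Pax4 at 1.28 too.

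Of 27 other peptide genes listed, 26 were in the deposited gene list, 5 of those had 0 UMIs, and 13 had enough UMIs to be counted. Of the 13, 4 were at least 10-fold higher in endocrine marker-high cells, where 2.99% of all genes were: Gast (83.9 against 0.407 CPM), Iapp (24.3 against 0.0291), Gal (11.5 against 0.0776) and Cartpt (11.4 against 0.00970). A single Ucn3-high cell held 80 of the 110 endocrine Cartpt UMIs, and without it Cartpt was at 3.12 CPM and 4.08-fold on CPM plus 1, short of the rule. Gal was 11.6-fold higher on that scale and 8.96-fold without its highest 2 cells. Gast, which encodes gastrin, had a UMI in 44.9% of Gcg-high, 55.0% of Pyy-high, 41.5% of Sct-high, 39.5% of Ghrl-high and 4.46% of Tac1-high cells. The highest 2 cells held 386 of its 808 endocrine UMIs. Without them Gast was at 44.0 CPM and still 31.9-fold higher on CPM plus 1. Iapp, known from pancreatic beta cells, was at 1.36 per 10000 UMIs in Gip-high cells and 0.0482 in Tac1-high cells, but it had a UMI in only 9 of the 54 Gip-high cells (16.7%), against 12.2% of Gcg-high and 12.8% of Ghrl-high cells. The highest 2 cells held 137 of its 234 endocrine UMIs, and without them it was at 10.1 CPM. Guca2a and Guca2b, the precursors of guanylin and uroguanylin, went the other way, with 2.80 against 9.25 and 10.9 against 87.6 CPM.
Receptors for these hormones had few UMIs in the organoids. Of 24 receptor genes, 11 had 0 UMIs in the 4066 kept cells, among them Glp1r, Glp2r and Cckbr, and 5 had enough UMIs to be counted. By CPM plus 1, only Sstr5 of the 5 was at least 10-fold higher in endocrine marker-high cells, where 2.99% of all genes were, at 10.4-fold (92 UMIs there and 2 elsewhere), and at 9.97-fold without its highest cell. On CPM itself the others were also higher there, Sstr1 171-fold (80 UMIs and 5), Sstr2 23.4-fold, Npy1r 16.4-fold and Gipr 15.9-fold. These receptor genes are named after their values were seen. With 112740056 UMIs in all, a gene at 0 is not detected at this depth rather than absent.

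Markers of other cell types moved with some hormone groups. The 7 goblet cell markers summed to 36.8 per 10000 UMIs in Cck-high, 39.8 in Gcg-high and 48.6 in Ghrl-high cells, to 14.0 in Tac1-high cells and to 8.21 in the other kept cells, with Clca1 at 0 in these hormone groups and Zg16 at 0 in the Cck-high and Gcg-high cells. The medians over cells were 12.6, 21.1, 27.5, 5.66 and 0.866 in the same order. The 5 Paneth cell markers summed to 14.0 to 21.3 in the Cck-, Gcg- and Ghrl-high cells, 6.61 in Tac1-high cells and 2.15 in other kept cells, with medians of 0.946 to 1.48, 0.834 and 0. The 8 enterocyte markers summed to 28.6 in Cck-high and 9.56 in Tac1-high cells, against 58.9 in other kept cells, but the medians over cells were 16.1, 6.32 and 17.8, so that Cck-high and other cells were close by that measure. The part of these values in the hormone results was not tested. The 5 mesenchymal markers had 2 UMIs in all 616 endocrine marker-high cells. The 5 neuron markers summed to 1.09 per 10000 UMIs in endocrine marker-high cells and 0.0303 in other kept cells.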

How the data were processed

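The UMI counts, whole numbers with no normalization, were deposited by the authors as a gene-by-barcode matrix. The submitters' processing notes name Cell Ranger 3.1.0, STAR 2.7.3a and bcl2fastq 2.20.0. The genome build, the annotation and any barcode filter are not given in the sources used here.

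A barcode was kept as a cell if it had 500 genes and 1000 UMIs or more, with 20% or less of its UMIs from mitochondrial genes. Total UMIs of the kept cells were 61628537 in set 1 and 51111519 in set 2. UMIs were summed and scaled to 1000000 (CPM) or to 10000 with exact Poisson intervals, shares carry Clopper-Pearson intervals at 95%, and log2 ratios were taken on CPM plus 1, which understates the ratio of low genes. Genes with at least 10 UMIs in the cells compared entered the counts over all genes. Each set is 1 pool whose cells are no replicates, so no test was run. The ratio and its intervals were tested on simulated counts. Those were drawn as Poisson totals of each gene, so they cannot show how the rule does where few cells hold most UMIs. Doublets were not removed. Scrublet (scanpy 1.11.5) marked 14 of 4066 cells (0.344%), too few to rely on, so leaving out the highest 5% of scores was an alternative.

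Named genes were all 10 hormones, the 4 genes closest to each hormone with at least 10 high cells in each set, and members of fixed lists with at least 3 UMIs in at least 5 cells. The hormones, lists and rules were chosen with earlier results of these data known. Promoter sequences came from RefSeq (GRCm38.p6), which held all 10 hormones with 14 start sites. The first listed 250 bases of each entry were used, and the bases after the start site were left out. Values of some single genes of the fixed lists are not reported here.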

Additional observations from a re-analysis of the deposited data

Results flagged for a closer look

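The barcodes that failed the filters, 17740 in all and 17415 of them over the mitochondrial limit, entered none of the main comparisons. They still held UMIs of all 10 hormones, above the 3 UMIs that a count of 0 would allow. Those over the mitochondrial limit alone entered the alternative with no such limit. Cck had 19369 UMIs there, Gip 10161, Tac1 4810, Ghrl 3706, Gcg 3493, Nts 1513, Sct 994, Sst 508, Ucn3 211 and Pyy 175. The level of Cck was 2.38 per 10000 UMIs, against 0.429 in the other kept cells and 429.6 in the endocrine marker-high cells. Sst was at 0.0625, against 0.00679 and 5.06. Of these barcodes, 177 (0.998%) met the endocrine marker rule, and 125 of the 177 were high for a hormone. By number of hormone-high barcodes Sst had 13, with at most 108 UMIs, where the kept cells had 1.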

How the results depend on the processing

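The count of 4 hormones at least 2-fold higher in set 2 ranged from 3 (pseudocount of 10) to 5 (mean of each cell's own value) over 10 alternatives, with a change of members. Pyy dropped out at a pseudocount of 10 (0.97 on the log2 scale), and Nts entered with the mean of each cell's own value (1.83). Without the highest Scrublet scores Sst dropped out (0.69) and Ghrl entered (1.15), and without the 3 highest cells of each hormone Sst dropped out (0.56) and Nts entered (1.53). The share of hormone UMIs in endocrine marker-high cells, 98.4%, was 95.9% with no mitochondrial limit, 98.8% at a limit of 10%, 98.6% without the 5% of cells with the most UMIs, 98.5% at 2000 genes or more, 98.4% at a marker level of 10 and 90.5% at 40. The planned choice of Leiden clusters found no cluster; by a rule added after seeing the data, at least 6 of the 12 markers 10-fold above their median over clusters, 4 of 20 clusters gave 98.3%. One of the 4, of 67 cells, had 0 of the 12 markers in its top 20 genes and was led by Zg16, Muc2 and Defa17, goblet and Paneth cell genes, and without it the share was 98.0%. The share of cells with at least 2 hormones, 45.2%, was 65.0% at 3 per 10000 UMIs, 29.7% at 30 and 31.7% at 100, and it moved by less than its interval under the other 7 alternatives. The causes were not tested. The log2 ratio of Nts changed sign in 2 of 10 alternatives, to -0.12 at a 10% mitochondrial limit and -0.08 without the cells with the most UMIs. Gcg-high cells were Cck-high in at least 98.4% under all 10 alternatives, Ghrl-high cells in 81.1% (no mitochondrial limit) to 95%, and Sct-high cells in 72.0% (at 3 per 10000 UMIs) to 94.6%, and the Tph1-high cells that were Tac1-high ran from 26.6% (at 100 per 10000 UMIs) to 100%. Ucn3-high cells were Cck-high in 8.57% at 3 per 10000 UMIs and in 0% under the other 8. With no mitochondrial limit, 13847 cells were kept. No paired analysis was possible because both samples hold the same matrix.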

Other observations

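A few endocrine marker-high cells carried Ghrl at a high level and no other hormone. These 5 cells leave out 1 such cell outside the endocrine marker-high cells and were singled out after their values were seen. They held 33.7% of all Ghrl UMIs of the kept cells, with 317 to 5545 UMIs each. Of their 12333 Ghrl UMIs, 10754 were in 1 cell of each set, with 5545 and 5209. In all 5 the granule gene Chga had more UMIs than Chgb (205 against 19 in sum), which was so in 6 of the 81 endocrine cells high for Ghrl and another hormone (1173 against 12941). The goblet markers of the 5 cells ran from 0.771 to 158 per 10000 UMIs with a median of 145, against 1.36 to 275 with a median of 25.1 in the 81 cells. Leaving out the highest 5% of Scrublet scores took all Ghrl-high cells from 87 to 80, and the Cck-high cells among them from 80 to 76. The scores of the 5 cells are not given here, and the part of goblet markers or doublets in the pattern was not tested.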
